A study of Drosophila melanogaster with 18 samples.

Results

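Nicotinic acetylcholine receptors are channels of 5 subunits that open when acetylcholine binds and let cations into the cell. Acetylcholine is the main fast excitatory transmitter of the insect central nervous system and is also released by insect sensory neurons, including those of Johnston's organ (JO), the hearing organ in the second antennal segment of *Drosophila*. Alpha subunits carry the paired cysteines of the ligand-binding site, beta subunits lack them, and the mix of subunits sets the pharmacology of a receptor. The genes described here are those whose associated gene name was one of 10 subunit names, *nAChRalpha1* to *nAChRalpha7* and *nAChRbeta1* to *nAChRbeta3*. Of these, 9 were found among the 16624 genes of the table, and *nAChRbeta3* was not analysed here. They were found in the table by name, without use of a measured value, but the gene family was chosen with earlier results of these data known.

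RNA was sequenced from the dissected second antennal segments of virgin Canton-S flies, a wild-type strain, in 18 libraries. There were 2 libraries of each sex at ages of 1, 5, 25 and 50 days and 2 libraries of males only at 10 days. The labels give no mutation, transgene or drug treatment for any group. The segment is a whole tissue with neurons, glia, supporting cells, muscle and haemolymph. From the RNA alone, fewer cells of a type and less RNA per cell cannot be told apart. The study also counted JO neurons by microscopy, in flies of a reporter genotype, and saw no difference in number between days 1, 5, 25 and 50. Neither the number of flies behind a library nor separate rearing of the replicates was given in the sources used here, so p-values measure only the spread between libraries, which may be technical. All values are normalised read counts, that is reads per gene divided by the size factor of the library.

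Reads in genes numbered 5815182 to 14315927 per library, with the male day 25 libraries the shallowest, and 4610 to 11246 reads per library fell in the 9 subunit genes. No subunit had fewer than 149 reads in any library. The 6 JO neuron markers (*nan*, *iav*, *nompC* and others) summed to between 3519.7 and 7095 in every library. No other tissue was sequenced for comparison, so these sums do not test the tissue label. Markers named for other cell types varied more: photoreceptor markers summed to between 4036 and 159159, and muscle markers to between 8988 and 84863. The study lists several of these photoreceptor markers, such as *trp*, *norpA* and *ninaC*, among known JO genes, so their sum need not measure eye tissue. Of the day 50 libraries, the second male one (CT16) and the second female one (CT18) each held transcripts of both sexes. *roX1*, a male dosage-compensation RNA, was at 16418 in CT18, against 395 to 1118 in the other female libraries. *Yp1*, a female yolk protein, was at 25444 in CT16 and 1944 in CT15, against 94.3 to 184 in the other male libraries. CT15, the first male day 50 library, thus also held more of this female transcript than the younger male libraries. Results for 1 sex at day 50 rest on these day 50 libraries. Leaving out CT16 and CT18 leaves no replicate of either sex at day 50, so it cannot show how far those results depend on them.

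In the annotation of the dm6 genome, 3 subunit genes lie in a row on chromosome arm 3R: *nAChRalpha1* (FBgn0000036, 24393896 to 24457157), *nAChRalpha2* (FBgn0000039, 24485428 to 24491147) and *nAChRbeta2* (FBgn0004118, 24509228 to 24515106). A gap of 28.3 kb with 1 coding gene (*CG31128*) separates the first pair, and 18.1 kb with no coding gene separates the next. *nAChRalpha3* (FBgn0015519, 8276200 to 8367169) and *nAChRalpha7* (FBgn0086778, 19327075 to 19348447) lie on the X chromosome. *nAChRalpha5* (FBgn0028875, 14040170 to 14094401) and *nAChRalpha6* (FBgn0032151, 9793317 to 9886250) lie on 2L. *nAChRbeta1* (FBgn0000038, 4429349 to 4435993) and *nAChRalpha4* (FBgn0266347, 23206669 to 23287448) lie on 3L. The library kit does not mark strand, so reads in shared exons cannot be assigned to a strand. That concerned 2.39% of the exon length of *nAChRalpha3*, shared with *CG1636*, and 4.08% of that of *nAChRalpha4*, shared with *lncRNA:CR46475*, whereas the other 7 subunits shared no exon base with another gene.

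All 9 subunits were detected in every library, and their levels spanned about an order of magnitude. Levels were compared per kb of exon, because exon length differed from 2.39 kb (*nAChRalpha2*) to 11.03 kb (*nAChRalpha1*). The length counts every exon base of any annotated transcript, so a gene that uses a shorter transcript is understated. The highest were *nAChRalpha7* at 244 ± 76.2, *nAChRalpha6* at 226 ± 80.2 and *nAChRalpha2* at 199.8 ± 57.9 normalised counts per kb (SD, n = 18). *nAChRalpha7* and *nAChRalpha6*, with *nAChRalpha5*, are the relatives of the vertebrate alpha7 subunit, and *nAChRalpha6* is the target of the insecticide spinosad. *nAChRbeta1*, a broad partner of alpha subunits, followed at 157 ± 55.3 per kb and *nAChRalpha3* at 122 ± 50.9 per kb. *nAChRalpha5* was at 91.6 ± 26.2, *nAChRbeta2* at 82.0 ± 28.9 and *nAChRalpha4* at 67.9 ± 12.8 per kb. *nAChRalpha1* was at 24.5 ± 6.18 per kb and was the lowest subunit per kb in all 18 libraries. Before division by length it was not always the lowest, with 323 normalised counts in CT07 against 252 for *nAChRbeta2*.

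**Figure D1:**
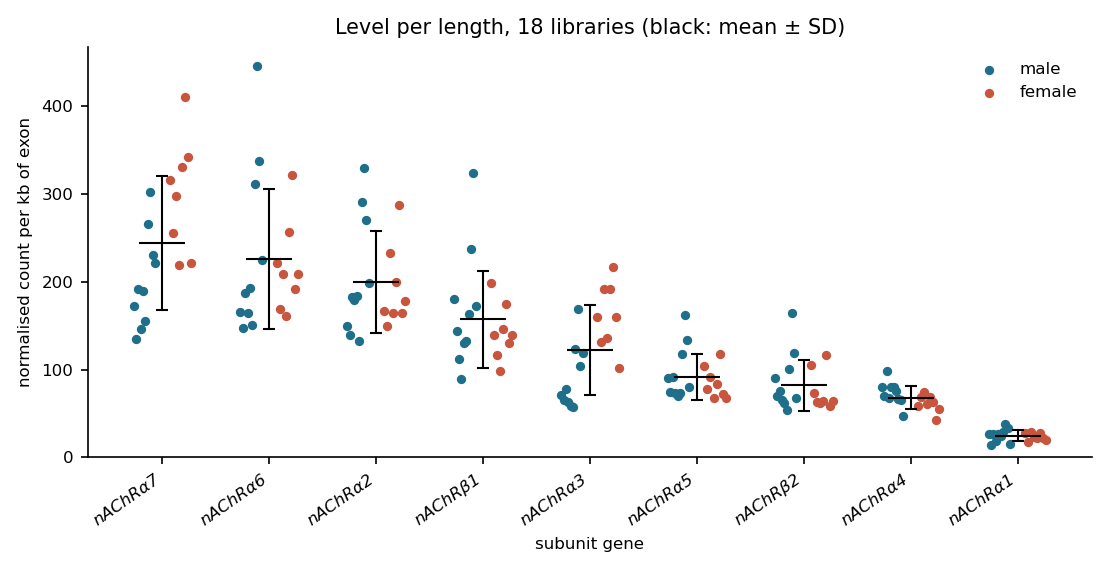
Level of each subunit in normalised counts per kb of exon for 18 libraries, with male points left of female points and the mean ± SD in black. *nAChRalpha1* sits apart at the low end (14.4 to 38.3 per kb), while the points of neighbouring subunits in the upper part of the order overlap.

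For most neighbours in this order the mean difference within a library was smaller than its SD over the 18 libraries. The difference within a library exceeded its own SD only for *nAChRalpha5* over *nAChRbeta2* (9.61 ± 8.52 per kb, higher in 16 of 18 libraries) and for *nAChRalpha4* over *nAChRalpha1* (43.4 ± 12.6 per kb, higher in 18 of 18). *nAChRalpha7* was above *nAChRalpha6* in 11 of 18 libraries, *nAChRalpha6* above *nAChRalpha2* in 15 and *nAChRalpha2* above *nAChRbeta1* in 14. Further down, *nAChRbeta1* was above *nAChRalpha3* in 13, *nAChRalpha3* above *nAChRalpha5* in 11 and *nAChRbeta2* above *nAChRalpha4* in 12. The most abundant subunit was *nAChRalpha7* in 10 libraries, *nAChRalpha6* in 6, and *nAChRbeta1* and *nAChRalpha2* in 1 each. As a share of the summed level of the 9 subunits, *nAChRalpha4* had a median of 7.06% at day 1, 6.99% at day 5, 4.36% at day 25 and 4.10% at day 50. *nAChRalpha6* had a median share of 16.2% at day 1, 17.1% at day 5, 20.0% at day 25 and 19.7% at day 50. *nAChRbeta1* had 15.7% at day 1, 10.1% at day 5, 10.9% at day 25 and 14.1% at day 50.

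The first question was how the subunits changed between the young ages. *nAChRbeta1*, whose product is one of the targets of neonicotinoid insecticides, fell between day 1 and day 5. It had 332 and 266 normalised counts in male and 346 and 292 in female day 5 libraries, against 537 and 428 in male and 592 and 414 in female day 1 libraries. All 4 day 5 libraries were below all 4 day 1 libraries, which held for 10.2% of all genes. The mean was 309 ± 36.6 at day 5 and 493 ± 85.7 at day 1 (SD, n = 4), a log2 fold change of -0.66 (SE 0.20) with an adjusted p of 0.0342. The call was lost, with an adjusted p between 0.107 and 0.144, without the first male or first female day 1 library (CT01, CT03) or the second male or second female day 5 library (CT06, CT08). It was also lost with libraries scaled to pan-neuronal markers (log2 fold change -0.61, adjusted p = 0.108).

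*nAChRbeta1* was the only one of the 9 subunits called between day 5 and day 1, where a call needs an adjusted p below 0.1 and a fold change above 1.5 (the limits used by the study) in limma with Benjamini-Hochberg adjustment over 14663 genes. Of all genes, 8.78% were called lower and 4.69% higher at day 5. The other 8 subunits had log2 fold changes of -0.33 to 0.31, and the median over the 9 was 0.05, beside 0.03 over all genes. Muscle markers summed to 14931 to 18486 at day 5 and to 55799 to 84863 at day 1, with 6 of 8 called lower. Their part in the *nAChRbeta1* result was not tested. *nAChRbeta1* changed by a log2 of -0.69 in males and -0.64 in females, and within 1 sex no subunit was called at day 5 over day 1 by limma, edgeR or DESeq2. In that test 1 subunit had an unadjusted p below 0.05 in each sex, and the share of genes called in either direction was 7.24% in males and 9.98% in females.

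**Figure D2:**
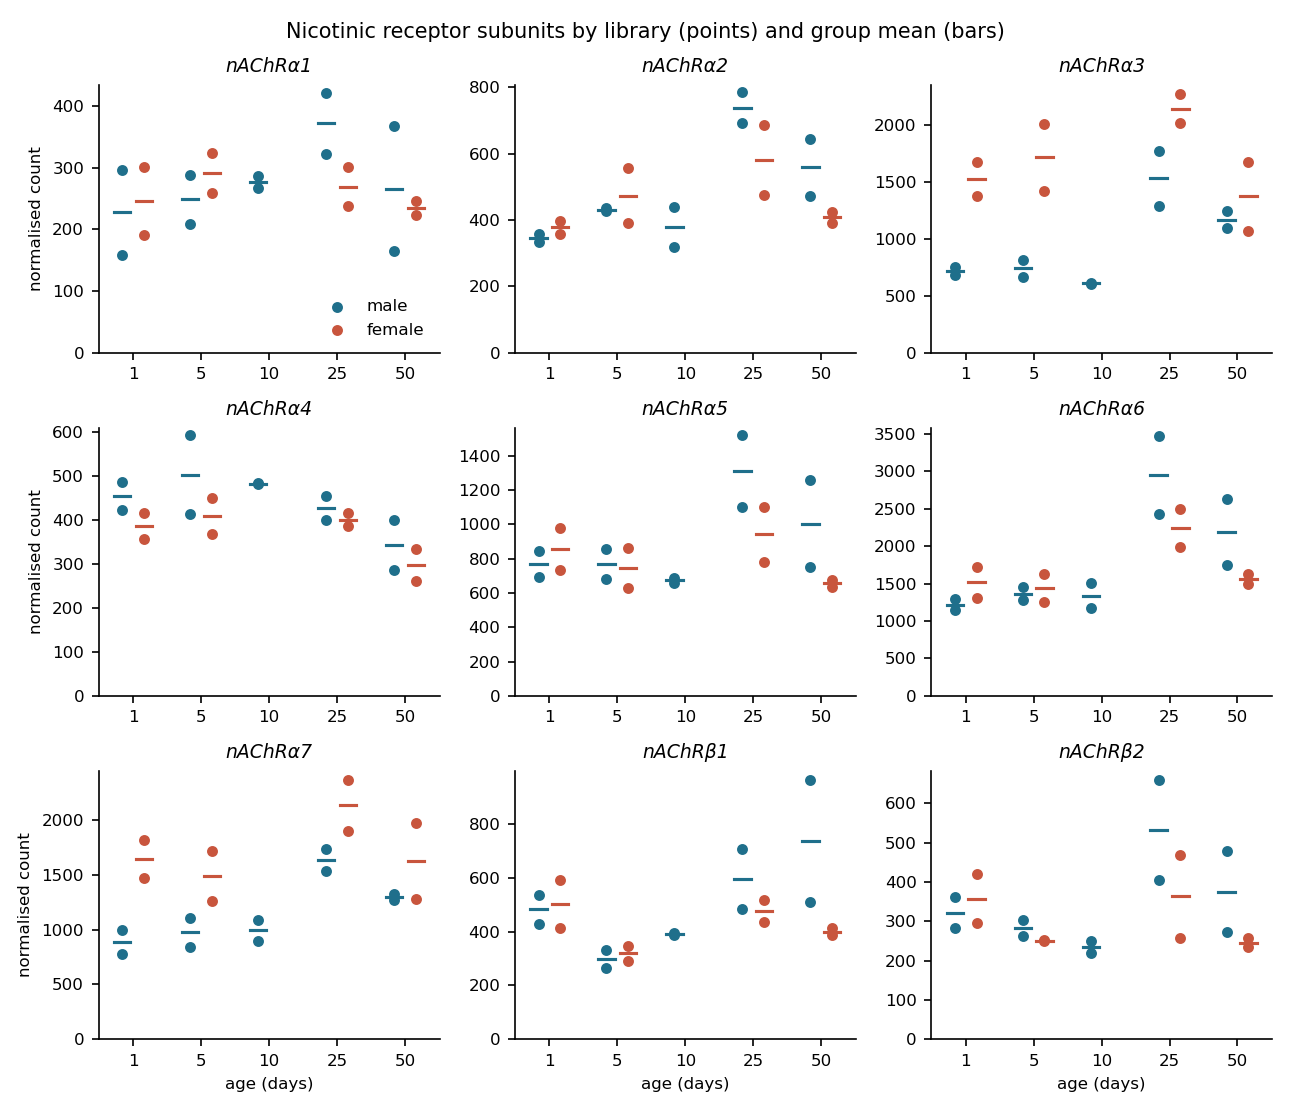
Normalised counts of each subunit in every library by age in days, with male points left of female points and a bar at each group mean. *nAChRbeta1* dips at day 5 (266 to 346), *nAChRalpha6* peaks at day 25 (1996 to 3467), and the female points of *nAChRalpha3* and *nAChRalpha7* lie above the male points at days 1, 5 and 25.

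Between day 5 and day 25, 5 of the 9 subunits rose and none fell. Those that rose were *nAChRalpha6*, *nAChRbeta1*, *nAChRalpha3*, *nAChRbeta2* and *nAChRalpha7*. Of all genes, 8.76% were called higher and 3.93% lower at day 25. The summed count of the 9 subunits was 8713 and 11481 in male and 8524 and 10606 in female day 25 libraries, against 6187 and 5043 in male and 8146 and 6132 in female day 5 libraries. The median log2 fold change was 0.64 over the subunits, with 8 of 9 higher, beside -0.02 over all genes.

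*nAChRalpha6* changed most. It had 2424 and 3467 normalised counts in male and 1996 and 2497 in female day 25 libraries, against 1454 and 1275 in male and 1626 and 1256 in female day 5 libraries. Every day 25 library was above every day 5 library. The mean was 2596 ± 621 at day 25 and 1403 ± 174 at day 5 (SD, n = 4), a log2 fold change of 0.87 (SE 0.17, adjusted p = 0.0068). *nAChRbeta1* had 485 and 707 in male and 436 and 519 in female day 25 libraries, with the day 5 values given above. Its groups also did not overlap, and its log2 fold change was 0.78 (SE 0.20, adjusted p = 0.0204). These were the 2 of 9 subunits whose 4 day 25 libraries were all above the 4 day 5 libraries, which held for 7.15% of all genes.

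The other 3 subunits that rose overlapped between the ages once both sexes were pooled. *nAChRalpha3*, an X-linked alpha subunit, had 1294 and 1778 in male and 2018 and 2276 in female day 25 libraries, against 818 and 663 in male and 2011 and 1423 in female day 5 libraries. Within each sex the day 25 libraries were the higher ones, though by as little as 2018 against 2011 in females, and the log2 fold change was 0.69 (SE 0.16, adjusted p = 0.0153). *nAChRalpha7*, an X-linked subunit needed in the escape circuit of the giant fibre, had 1534 and 1743 in male and 1908 and 2373 in female day 25 libraries, against 1106 and 846 in male and 1721 and 1263 in female day 5 libraries. Its log2 fold change was 0.64 (SE 0.17, adjusted p = 0.0217). *nAChRbeta2*, a beta subunit of the 3R cluster, had 406 and 660.4 in male and 256 and 469.7 in female day 25 libraries, against 303 and 263 in male and 252 and 249.8 in female day 5 libraries. One library of each sex carried most of that difference, and the log2 fold change was 0.67 (SE 0.23, adjusted p = 0.0684).

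The 4 remaining subunits were not called. *nAChRalpha5* (log2 fold change 0.54, adjusted p = 0.0705) and *nAChRalpha2* (0.53, adjusted p = 0.0528) passed the limit on p but stayed below the fold limit. *nAChRalpha1* had a log2 fold change of 0.23 (adjusted p = 0.619). *nAChRalpha4* was the one subunit with a lower value, at 414 ± 29.7 on day 25 and 455 ± 97.2 on day 5 (SD, n = 4), with a log2 fold change of -0.12 (adjusted p = 0.708), which was 0.23 with libraries scaled to pan-neuronal markers.

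**Figure D3:**
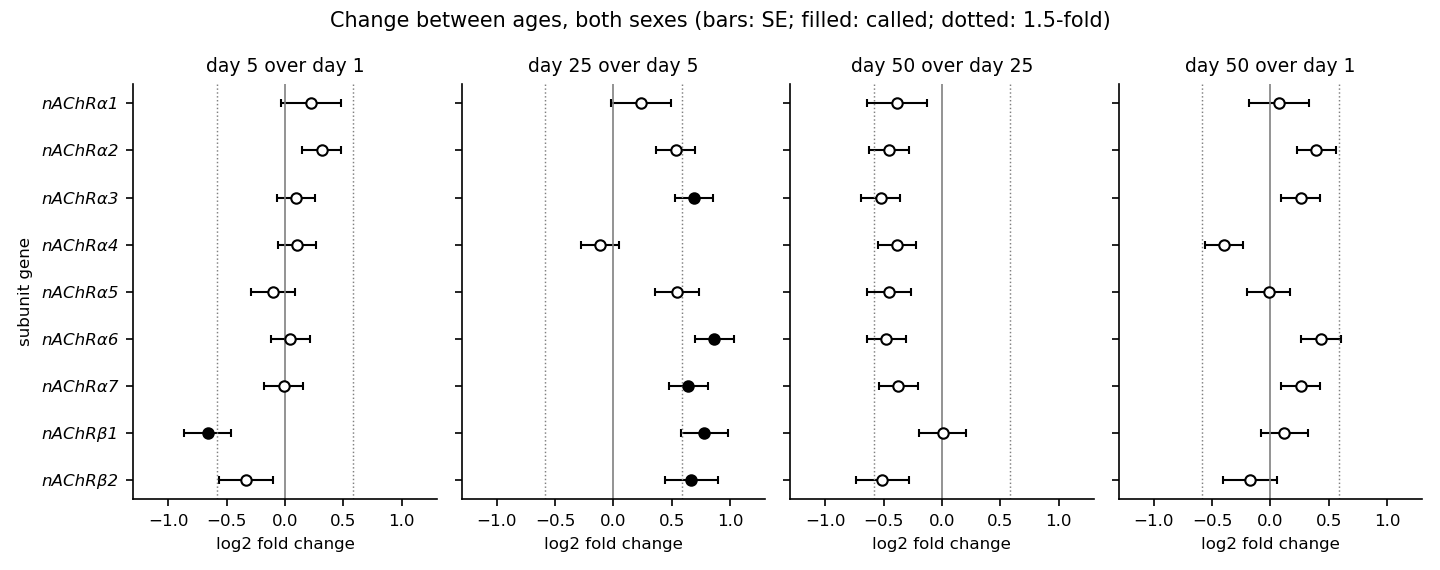
Log2 fold change of each subunit (point, with its standard error) in the 4 age comparisons of both sexes, with filled points for subunits called and dotted lines at a fold of 1.5. The points of day 25 over day 5 lie to the right of 0 for all subunits but *nAChRalpha4*, and those of day 50 over day 25 lie to the left for all but *nAChRbeta1*, and both exceptions change side under pan-neuronal scaling.

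The day 25 libraries differed from the others in more than these genes. Pan-neuronal markers, a list of 14 genes such as *elav*, *nSyb* and *brp*, summed to 33151 to 47741 at day 25, against 47496 to 58096 at day 5. Of the 14, 4 fell, beside 3.93% of all genes called lower. Seen as a mean log2 deviation from all libraries, the 14 markers were lowest in the second male (CT12, -0.51) and the second female day 25 library (CT14, -0.29), against -0.19 in CT11 and -0.02 in CT13. Autosomal lincRNA genes (1355 genes) had a mean log2 deviation of 0.75 in CT12, 0.46 in CT14, 0.43 in CT11 and -0.04 in CT13, against -0.05 to 0.34 at day 5. CT12 and CT14 were also the 2 libraries with the highest subunit sums. Brain neuropeptide markers summed to 743 to 1456 at day 25, against 471 to 713 at day 5, with 1 of 7 called higher, beside 8.76% of all genes. JO neuron markers summed to 5223 to 5443 at day 25, against 5053 to 7095 at day 5, with none of 6 called by limma.

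None of the 5 calls at day 25 over day 5 held without these 2 libraries. That setting, added after the data were seen, left no replicate at day 25 in either sex. The share of all genes called in it is not given, so the lost calls cannot be read as particular to the subunits. In it *nAChRalpha6* had a log2 fold change of 0.66, *nAChRbeta1* 0.58, *nAChRalpha3* 0.53, *nAChRalpha7* 0.52 and *nAChRbeta2* 0.28. With the lincRNA level of each library as a covariate, also added later, only *nAChRalpha6* was called (0.61, adjusted p = 0.0380). Without CT12 alone, *nAChRalpha6* and *nAChRalpha7* remained called. Without CT14 alone, *nAChRalpha6* and *nAChRalpha3* did, and without the second female day 5 library (CT08) *nAChRalpha6* and *nAChRbeta1* did. Without the second male day 5 library (CT06), 3 subunits were called. Over all settings *nAChRalpha6* was called in 32 of 33 alternatives, *nAChRalpha3* and *nAChRbeta1* in 29, *nAChRalpha7* in 28 and *nAChRbeta2* in 25. Many of these alternatives left out a library of another age or loosened a limit and could hardly change this comparison, so the tallies overstate how firm the calls are. The part of neuronal or lincRNA content in the result was not tested beyond these values.

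**Figure D4:**
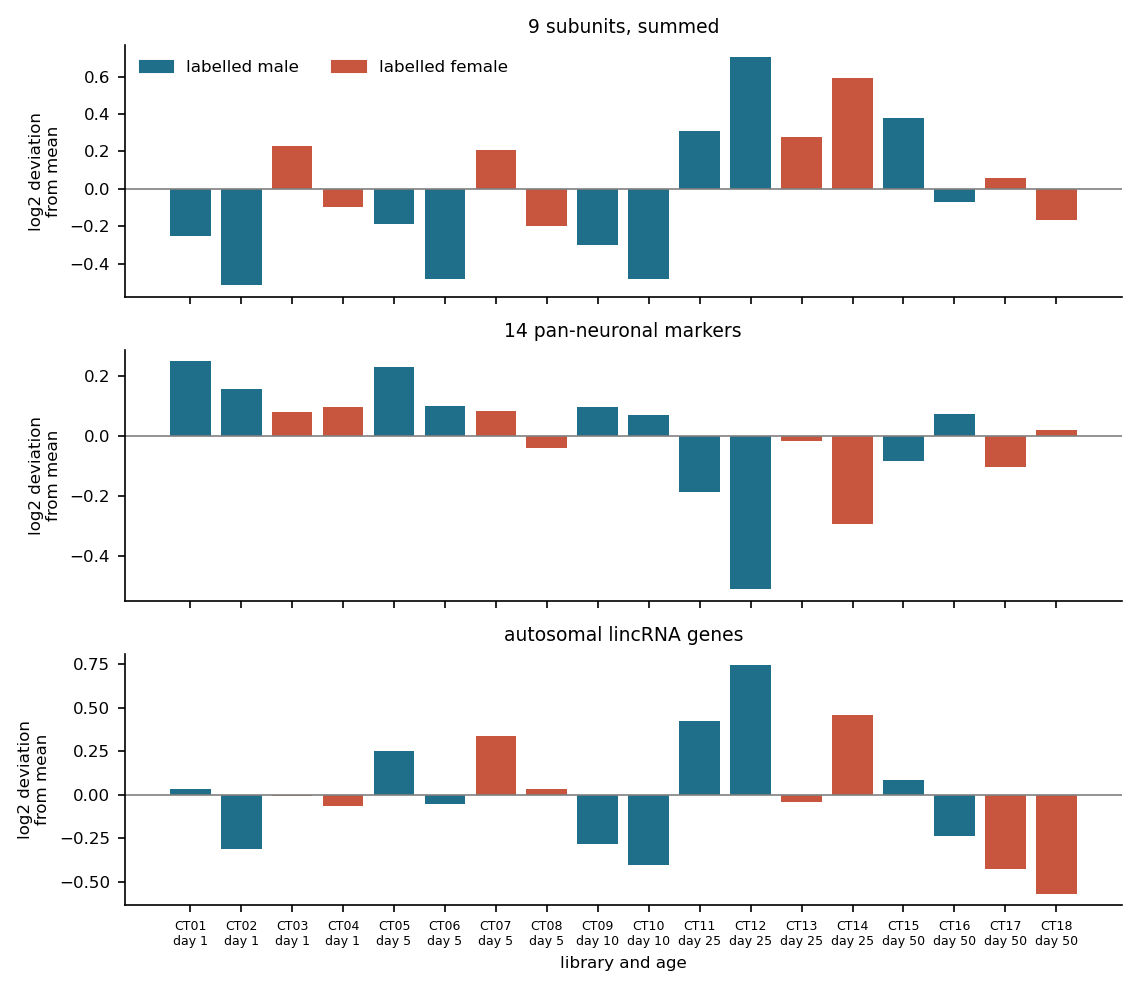
Log2 deviation of each of the 18 libraries (x axis, by age) from the mean of all libraries, for the summed count of the 9 subunits (top), 14 pan-neuronal markers (middle) and autosomal lincRNA genes (bottom), with bars coloured by labelled sex. CT12 and CT14, with the highest subunit sums (11481 and 10606), have the 2 lowest neuronal bars (-0.51 and -0.29) and the 2 highest lincRNA bars (0.75 and 0.46).

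Between day 25 and day 50, 8 of the 9 subunits had lower values, but none passed both limits. *nAChRalpha3* was at 1272 ± 278 at day 50 and 1841 ± 418 at day 25 (SD, n = 4), with a log2 fold change of -0.53 (adjusted p = 0.0288). *nAChRalpha6* was at 1872 ± 513 at day 50 and 2596 ± 621 at day 25, with a log2 fold change of -0.48 (adjusted p = 0.0448). *nAChRbeta1* was the exception, at 569 ± 269 at day 50 and 537 ± 118 at day 25, with a log2 fold change of 0.01 (adjusted p = 0.988; -0.22 under pan-neuronal scaling). The first male day 50 library (CT15) held 963 counts of *nAChRbeta1*, against 386 to 511 in the other 3. Some other tissue markers of CT15 stood apart as well. Brain neuropeptide markers summed to 1690.3, against 579 to 758 in the other day 50 libraries, and glia markers to 16088, against 23310.2 to 24638. Photoreceptor markers were highest in CT15 (159159) but also high in CT16 (127025) and CT18 (86623), against 9259.7 in CT17. The part of these markers in the value of *nAChRbeta1* was not tested.

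By limma, 0 of 9 subunits were called between day 50 and day 25, beside 17.4% of all genes called lower and 9.78% higher. An unadjusted p below 0.05 was reached by 7 subunits, and edgeR and DESeq2 called none. An adjusted p below 0.1 at any fold was reached by 5 of 9, with *nAChRalpha2*, *nAChRalpha4* and *nAChRalpha5* beside the 2 above, and by 38.6% of all genes. Their log2 fold changes were -0.53 to -0.39. The median over the 9 was -0.45, beside -0.04 over all genes and -0.67 over 1570 lincRNA genes. Leaving out CT15 gave 4 calls, and leaving out CT11, CT13 or CT17 gave 3, 1 and 1. The call count also depended on the scaling. With libraries scaled to pan-neuronal markers, 7 subunits were called lower and the median of all genes moved by -0.22. The share of all genes called is not given for that scaling or for these left-out libraries, so the counts have no background beside them.

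Over the whole span, day 50 against day 1, no subunit was called in limma, edgeR or DESeq2, and 3 had an unadjusted p below 0.05. Of all genes, 12.8% were called lower and 9.21% higher. *nAChRalpha6* (log2 fold change 0.43, adjusted p = 0.0752) and *nAChRalpha4* (-0.40, adjusted p = 0.0922) passed the limit on p at any fold, as did 30.0% of all genes. *nAChRalpha4* had 398 and 286 normalised counts in male and 259.9 and 334 in female day 50 libraries, against 485 and 421 in male and 355 and 414 in female day 1 libraries. These groups overlapped, by the 398 of CT15. The median over the 9 subunits was 0.12, with 6 higher and 3 lower, beside -0.05 over all genes.

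Day 10 was sampled in males only. Between day 10 and day 5, no subunit was called by limma, edgeR or DESeq2, none had an unadjusted p below 0.05, and 0% of all genes were called by limma in either direction. *nAChRalpha6* had 1503 and 1168 normalised counts in male day 10 libraries, against 1454 and 1275 in male day 5 libraries. *nAChRbeta1* had 386 and 394 in male day 10 libraries, against 332 and 266 in male day 5 libraries, with a log2 fold change of 0.39 (adjusted p = 0.843).

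In males, 6 of 9 subunits rose at day 25 over day 10, beside 16.8% of all genes called higher. *nAChRalpha3* had 1294 and 1778 in male day 25 libraries, against 616 and 607 in male day 10 libraries, a log2 fold change of 1.31 (adjusted p = 0.0088). *nAChRbeta2* had 406 and 660.4 in male day 25 libraries, against 249 and 219 in male day 10 libraries (1.15, adjusted p = 0.0242). *nAChRalpha6* (1.13, adjusted p = 0.0103), *nAChRalpha2* (0.98, 0.0146), *nAChRalpha5* (0.94, 0.0239) and *nAChRalpha7* (0.72, 0.0407) rose as well. Without CT12 no subunit was called, without the second day 10 library (CT10) 2 were called, and with the lincRNA covariate none was called. Without both CT12 and CT14, *nAChRalpha3* was still called.

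Taken sex by sex, the day 25 change was called in males and not in females. In males 6 of 9 subunits rose at day 25 over day 5, beside 9.25% of all genes called higher: *nAChRalpha6* (log2 fold change 1.09, adjusted p = 0.0172), *nAChRalpha3* (1.04, 0.0185), *nAChRbeta1* (0.98, 0.0434), *nAChRalpha2* (0.77, 0.0561), *nAChRalpha5* (0.76, 0.0841) and *nAChRalpha7* (0.76, 0.0566). Without CT12, or without CT06, none of them was called. In females no subunit was called by limma, edgeR or DESeq2, 2 had an unadjusted p below 0.05, and the highest log2 fold change was that of *nAChRalpha6* (0.64, adjusted p = 0.409). Only 0.246% of all genes were called in females. The difference between the sexes was itself called for none of the 9 subunits and for 0% of all genes. *nAChRalpha3* came nearest, with a male change higher by 0.70 (SE 0.33, unadjusted p = 0.0494, adjusted p = 0.814).

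At day 50 over day 1, 3 of 9 subunits rose in libraries labelled male, beside 5.76% of all genes called higher. Both male day 50 libraries, CT15 and CT16, had *Yp1* above the younger male libraries. *nAChRalpha6* had 2627 and 1744 in male day 50 libraries, against 1290.3 and 1143 in male day 1 libraries (log2 fold change 0.82, adjusted p = 0.0351). *nAChRalpha3* (0.70, adjusted p = 0.0637) and *nAChRalpha2* (0.68, adjusted p = 0.0834) rose too. In libraries labelled female no subunit was called by any of the 3 tools, none had an unadjusted p below 0.05, and 19.1% of all genes were called. The difference between the sexes was called for no subunit and for 0% of genes. Its unadjusted p was 0.0160 for *nAChRalpha3*, 0.0363 for *nAChRalpha6* and 0.0467 for *nAChRbeta1*, with adjusted p of 0.467, 0.484 and 0.494.

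At day 50 over day 25, no subunit was called by limma in males (none with an unadjusted p below 0.05, and none called by edgeR or DESeq2) or in females (2 with an unadjusted p below 0.05, none called by edgeR and 1 by DESeq2). Of all genes, 17.2% were called in males and 6.87% in females. The difference between the sexes was called for no subunit in this comparison or at day 5 over day 1, and for 0% of all genes in both. No subunit had an unadjusted p below 0.05 for either difference, and neither edgeR nor DESeq2 called one.

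Males and females were compared over days 1, 5 and 25, where the sex transcripts followed the labels. The 2 X-linked subunits were lower in males and the 7 autosomal ones were not called. *nAChRalpha3* had 752 and 684 in male day 1 libraries, against 1678 and 1381 in female ones. It had 818 and 663 in male day 5 libraries, against 2011 and 1423 in female ones, and 1294 and 1778 in male day 25 libraries, against 2018 and 2276 in female ones. Every male library was below every female library of its age. The log2 difference of males over females was -0.93 (SE 0.13, adjusted p = 0.0014), and it was called in all 33 alternatives (-1.01 to -0.75). Many of these left out a library of day 10 or day 50 or loosened a limit, and could hardly change this comparison. The tally thus overstates how firm the call is, and the same holds for that of *nAChRalpha7* given next.

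*nAChRalpha7* had 996 and 781 in male day 1 libraries, against 1823 and 1475 in female ones. It had 1106 and 846 in male day 5 libraries, against 1721 and 1263 in female ones, and 1534 and 1743 in male day 25 libraries, against 1908 and 2373 in female ones. Here too no male library reached a female library of its age, and the log2 difference was -0.63 (SE 0.14, adjusted p = 0.0146). It was called in 26 of 33 alternatives, and fell below the fold limit without CT02, CT03, CT06, CT07 or CT14 in turn (log2 difference -0.58 to -0.55, adjusted p = 0.0499 to 0.0741). Together these are 2 of 9 subunits called lower in males, beside 2.73% of all genes, and 2 of 9 with every male library below every female library of its age, beside 3.14% of all genes. The autosomal subunits had log2 differences between -0.0001 (*nAChRalpha6*) and 0.20 (*nAChRalpha4* and *nAChRbeta2*), with adjusted p of at least 0.738.

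**Figure D5:**
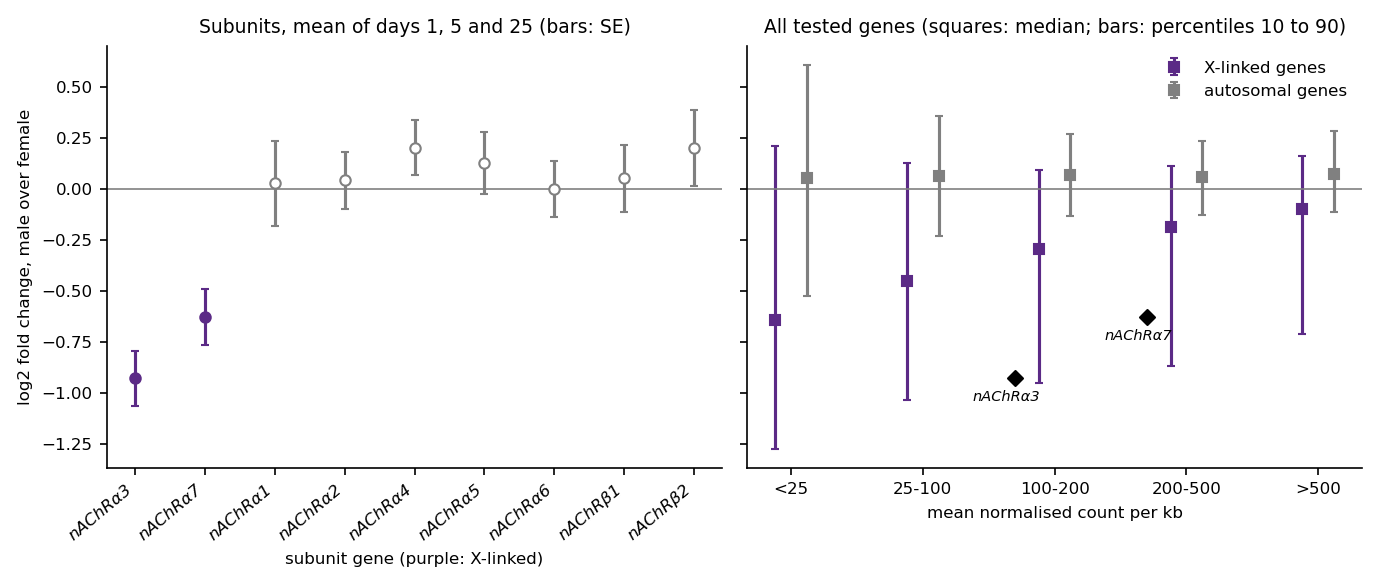
Left, log2 fold change of males over females over days 1, 5 and 25 for each subunit (point, with its standard error; filled where called). Right, the median of all tested X-linked and autosomal genes by mean level per kb (squares, with bars from percentile 10 to percentile 90), with the X-linked subunits as diamonds: *nAChRalpha3* (-0.93) and *nAChRalpha7* (-0.63) lie below the X-linked medians of their bands (-0.29 and -0.19).

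A lower level in males was common among X-linked genes in these libraries. Of 2282 X-linked genes tested, 16.6% were called lower in males and the median log2 difference was -0.32, against 0.179% and 0.06 for 12304 autosomal genes. The X-linked median also ran with the level per kb. It was -0.64 under 25 counts per kb, -0.45 from 25 to 100, -0.29 from 100 to 200, -0.19 from 200 to 500 and -0.10 above that, while the autosomal median stayed at 0.06 to 0.07. Among the 491 X-linked genes at 100 to 200 counts per kb, 11.4% were as low in males as *nAChRalpha3* or lower. Among the 392 at 200 to 500, 18.1% were as low as *nAChRalpha7* or lower. The 3 other channels of the same superfamily that were lower in males, *Lcch3* (-0.90, adjusted p = 0.0373), *CG6927* (-0.90, 0.0795) and *CG8916* (-0.79, 0.0822), are X-linked as well. None of the 20 autosomal genes among the 24 listed cholinergic and channel genes was called by limma.

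Age by age the difference of *nAChRalpha3* was -1.08 at day 1 (adjusted p = 0.167), -1.20 at day 5 (adjusted p = 0.0542) and -0.50 at day 25 (adjusted p = 0.665). That of *nAChRalpha7* was -0.89 at day 1, -0.61 at day 5 and -0.38 at day 25, with adjusted p of at least 0.214. At day 5, 1 of 9 subunits was called lower in males, beside 0.505% of all genes. At days 1 and 25 limma called no subunit, beside 0.0477% and 0.184% of all genes in either direction, although 2 subunits at day 1 and 1 at day 25 had an unadjusted p below 0.05. For these days edgeR called none, and DESeq2 called 2 at day 1 and none at day 25.

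At day 50 the difference was not called for any subunit by the 3 tools (2 with an unadjusted p below 0.05) and for 0% of all genes by limma. *nAChRalpha3* had 1097 and 1244 in libraries labelled male, against 1674 and 1073 in libraries labelled female. The lower female value belonged to CT18, the library with a male level of *roX1*. The X-linked subunits together were at 335 and 339 counts per kb in libraries labelled male, against 502 and 324 (CT18) in libraries labelled female. *nAChRalpha7* had 1331 and 1276 in libraries labelled male, against 1977 and 1282 (CT18) in libraries labelled female.

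The subunits did not all follow each other across libraries. As a description over 18 libraries that share age, sex and depth, Pearson's r of log2 values between pairs of subunits ran from -0.44 to 0.94 with a median of 0.52 over 36 pairs. The highest were *nAChRalpha3* with *nAChRalpha7* (both X-linked) and *nAChRalpha5* with *nAChRbeta2*, at 0.94 each, and *nAChRalpha2* with *nAChRalpha6* at 0.93. *nAChRalpha4* stood apart, with r between -0.44 and 0.32 to the other 8 subunits.

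Among the 10326 genes that averaged 50 normalised counts or more, the 3 genes most like each called subunit over the 18 libraries were found by the same r. For *nAChRalpha6* they were *CR44992* (0.977), *CG5968* (0.967) and *CR44553* (0.965), and for *nAChRalpha3* *CG44422* (0.987), *AstA-R1* (0.985), an allatostatin receptor, and *CR32773* (0.982). For *nAChRalpha7* they were *CR45616* (0.976), *CR44754* (0.970) and *CG1695* (0.966). *nAChRbeta2* was most like *nAChRalpha5* (0.937), *Ubc84D* (0.917) and *CG14301* (0.90). The likeness of *nAChRbeta1* was lower, at 0.886 for *CG14989*, 0.863 for *CG42613* and 0.822 for *CG14301*. Names with the prefix CR are those of non-coding genes.

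None of the 4 listed genes that make, load or clear acetylcholine rose at day 25 over day 5. Of these, *VAChT*, which loads the transmitter into vesicles, fell at day 25 over day 5, at 834 ± 183 at day 25 and 1385 ± 154 at day 5 (SD, n = 4, log2 fold change -0.75, adjusted p = 0.0060). That call was lost without CT12 and CT14 and was kept with the lincRNA covariate. At day 50 over day 1, *VAChT* fell (960.0 ± 167 at day 50 and 1756 ± 220.0 at day 1, log2 fold change -0.88, adjusted p = 2.6e-04). *ChT*, which takes choline back up, fell as well (1758 ± 119.5 at day 50 and 2673 ± 309 at day 1, -0.60, adjusted p = 0.0055). *Ace*, the esterase that breaks acetylcholine down and the most abundant of the list, rose (4951 ± 1259.8 at day 50 and 3109 ± 116 at day 1, 0.64, adjusted p = 0.0040). *ChAT*, the synthesising enzyme, was not called in any age comparison and averaged 1451 ± 105 at day 50 and 1697 ± 162 at day 1. None of the 4 was called by limma at day 5 over day 1 or at day 50 over day 25. Of all genes, 3.93% were called lower at day 25 over day 5. At day 50 over day 1, 12.8% of all genes were called lower and 9.21% higher.

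Of the 3 muscarinic receptors, which signal through G proteins, only *mAChR-B* was called, lower at day 50 (261 ± 50.6) than at day 25 (535 ± 129, log2 fold change -1.02, adjusted p = 0.0052), a call that was lost without CT12 and CT14 and with the lincRNA covariate. *mAChR-A* was the most abundant at 445 ± 106 (SD, n = 18). Of 5 accessory proteins, *Hasp*, a partner of the synaptic cleft protein Hig, fell at day 5 (111 ± 38.9, against 365 ± 164 at day 1, log2 fold change -1.65, adjusted p = 0.0081). *Unc50*, known from *Caenorhabditis elegans* for the trafficking of these receptors, rose at day 50 (441 ± 38.7, against 242 ± 54.2 at day 25, log2 fold change 0.89, adjusted p = 0.0038), a call that held without CT12 and CT14 and was lost with the lincRNA covariate. The others, *ric-3*, *qvr* and *hig*, were not called, though with the lincRNA covariate *ric-3* was called lower at day 25 over day 5. The most abundant of the list was *qvr*, the Ly6 protein Sleepless, which averaged 2018 ± 419 over 18 libraries. At day 25 the 5 accessory genes summed to 2364 to 3562, against 3613 to 4599.6 at day 5. Of all genes, 8.78% were called lower at day 5 over day 1. At day 50 over day 25, 17.4% of all genes were called lower and 9.78% higher.

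The 12 other Cys-loop channels, ion channels of the same superfamily gated by other ligands, had 4 members that rose at day 25 over day 5 and 4 that fell at day 50 over day 25, beside 8.76% of all genes called higher and 17.4% called lower. Without CT12 and CT14 none of the 12 was called by limma in either comparison, and with the lincRNA covariate only *SecCl*, at day 25 over day 5. *Lcch3* and *Grd*, channels related to GABA receptors, and *CG8916* were in both sets. At day 25 over day 5 their log2 fold changes were 1.01 (adjusted p = 0.0278), 0.78 (0.0553) and 0.78 (0.0850), and at day 50 over day 25 they were -0.70 (0.0683), -0.69 (0.0504) and -1.25 (0.0070). *pHCl-2*, a pH-gated chloride channel of low abundance, was the other one that fell (-1.96, adjusted p = 0.0634). *SecCl* rose at day 5 over day 1 (log2 fold change 0.88, adjusted p = 0.0018), at day 25 over day 5 (0.59, 0.0345) and at day 50 over day 1 (1.33, 3.2e-05). It averaged 202 ± 65.2 at day 1, 356 ± 22.7 at day 5, 539 ± 46.0 at day 25 and 485 ± 41.1 at day 50. *ort*, the histamine receptor that receives photoreceptor signals, fell at day 50 over day 1 at a low level (9.78 ± 5.91 at day 50 and 35.9 ± 25.3 at day 1, -1.59, adjusted p = 0.0844). *Rdl*, the main GABA-gated chloride channel, was the most abundant of the list at 6506 ± 756 over 18 libraries and was not called in any age comparison.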

How the data were processed

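RNA of second antennal segments was made into cDNA with SMART-Seq v4, into libraries with Nextera XT, and sequenced on a NextSeq 500 as paired reads. Per the labels, reads were aligned in Partek to dm6, counted with HTSeq and tested with DESeq2 by the authors; versions are not given in the sources used here. The deposited table of 16624 genes held a signal per gene and library, the read counts divided by DESeq2 size factors by the authors. It also held a mean signal over all libraries and the authors' own comparisons (log2 fold changes and their errors, a test score, p-values and adjusted p-values), which were not used. Each value was a whole number of reads to within 0.01 (100% of values) once the step of its library was found, and all 18 library columns were mapped to samples by title.

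Genes with at least 10 in at least 2 libraries were tested (14663 genes, all 9 subunits). Log2(value + 1) was fitted with limma 3.58.1 in R 4.3.3 with 1 coefficient per age and sex, so fold changes of low genes are understated. Residual degrees of freedom were 9. A change of both sexes averages the change in males and that in females with equal weight, and p-values were adjusted over all tested genes. edgeR 4.0.16 and DESeq2 1.42.0 were run on the recovered reads as alternatives, beside other pseudocounts, filters, scalings, covariates, limits and libraries left out (33 alternatives in all, the lincRNA covariate and the removal of CT12 and CT14 added after the data were seen). Steps were tested on simulated data. Positions and exon lengths came from Ensembl's BDGP6 annotation, whose coordinates are those of dm6. The text names all subunits, the called or most abundant genes of 4 lists of cholinergic and channel genes, and the 3 genes most like each called subunit. The gene family and the lists were chosen with earlier results of these data known, and the members were then found by name. Figures were drawn with matplotlib 3.10.9.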

Additional observations from a re-analysis of the deposited data

Results flagged for a closer look

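Among 40 sets of 4 libraries of one age, for each of the 9 subunits and for their sum, 2 held a library far from the other 3 by Dixon's ratio, the gap to the nearest library divided by the whole range, above its 95% critical value. Chance gives about 1 such set in 20 if sets are independent and hold like libraries. These sets pooled both sexes and the sum reused the same subunits, so that rate is only a rough guide. *nAChRalpha7* had 1977 normalised counts in the first library labelled female at day 50 (CT17), against 1276 to 1331 in the other day 50 libraries, with a ratio of 0.921. *nAChRbeta2* had 479 in the first library labelled male at day 50 (CT15), against 233 to 272 in the other day 50 libraries, with a ratio of 0.844. In CT15 brain neuropeptide markers summed to 1690.3, against 579 to 758 in the other day 50 libraries, and glia markers to 16088, against 23310.2 to 24638; their part in this value was not tested. The other 3 day 50 libraries for *nAChRalpha7* included CT18, which is labelled female and had a male level of *roX1*. The difference between the sexes in an age change was called for no subunit.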

How the results depend on the processing

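No subunit that was called under any setting had its direction turned by another, over single subunits and alternatives with 230 values that kept a call, 34 that lost one, 36 that gained one and 1185 that had none in either case. With libraries scaled to pan-neuronal markers, which moved the median of all genes by 0.34 at day 25 over day 5, -0.22 at day 50 over day 25 and 0.16 at day 50 over day 1, the count called was 0 at day 5 over day 1, 7 at day 50 over day 25, 1 at day 50 over day 1 and 16 within 1 sex (9 as reported). Without a fold limit it was 5 at day 50 over day 25 and 2 at day 50 over day 1, and with an adjusted p below 0.05 it was 4 within 1 sex. With the lincRNA covariate it was 2 at day 5 over day 1, 1 at day 25 over day 5, 1 at day 50 over day 1 and 0 for males at day 25 over day 10. Without CT12 and CT14 it was 0 at day 25 over day 5, 1 for males at day 25 over day 10 and 3 within 1 sex. With age and sex as added terms, or with the photoreceptor marker *chp* as a covariate, it was 1 for males over females. The share of all genes called under each of these settings is not given, and the causes of these changes were not tested.

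Leaving out each library in turn gave 0 to 1 calls at day 5 over day 1, 2 to 7 at day 25 over day 5, 0 to 4 at day 50 over day 25, 0 to 7 for males at day 25 over day 10, 1 to 2 for males over females and 3 to 10 within 1 sex. In each such fit the lone library of a group was assumed to vary like the other groups. Every subunit had 149 reads or more in each library, and each group of one age and sex had 2 libraries; the part of depth was not tested.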
